A study of Rattus norvegicus with 20 samples.

Results

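Liver mRNA of a pair of rat lines was set against liver mRNA of the strains they were bred from. Line-A and Line-C descend from crosses of Long-Evans (L-E) with Han/Wistar (H/W) rats. The 8 arrays of the lines and the 8 arrays of their parental strains were chosen by their sample labels, out of 20 arrays in the series, and each of the 4 groups held 4 rats and had equal weight. Line-A carried the mutant *Ahr* of H/W, whereas Line-C and L-E carried the wildtype gene, so that 1 mutant group and 1 wildtype group stood on each side. *Ahr* encodes the aryl hydrocarbon receptor, the protein through which dioxins act. L-E was an in-bred strain and H/W a random-bred closed colony. All rats were males of 10 to 12 weeks, and the liver was taken 19 h after corn oil had been given by gavage. The remaining 4 arrays came from Sprague-Dawley (S-D) rats of the same sex, age and treatment. They took no part in the difference and entered the fit only for its estimate of the spread.

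The array held 15923 ProbeSets, of which 7168 had a mean signal of at least 4 on the log2 scale over the 20 arrays and are described here. Each signal is a log2 value, so that a difference of 1 is a doubling of the signal. A difference is the mean of the lines minus the mean of the parental strains, and a ProbeSet was called when limma's adjusted p-value was under 0.05. All 8 arrays of the lines were scanned on 1 day and came from 1 chip lot. The parental arrays were scanned on 3 other days, 5 of them on 1 day, and came from another 2 lots. The origin of the rats, the scan day and the chip lot therefore cannot be told apart in this comparison. A fit in which the scan day was a random block gave 385 calls in place of 2298, and it is quoted below as the scan-day fit. It used 1 correlation for all ProbeSets. Because the lines had 1 scan day and 1 lot, a call kept in this fit still cannot separate origin from day or lot. The 18 ProbeSets of bacterial and phage RNA spiked in before hybridization all read higher in the lines, by 0.01 to 0.57 with a median of 0.28, and 11 of them were called higher. Several ProbeSets read each of the spiked transcripts (bioB, bioC, bioD and cre), so they are not 18 separate controls. None of the 18 ProbeSets separated the lines from the parental strains without overlap. RNA quality was read from the difference between the 3' and 5' ProbeSets of *Gapdh*. It was 0.17 to 0.50 in the lines, with a median of 0.41, and 0.23 to 0.81 in the parental strains, with a median of 0.33. The same difference for beta-actin had medians of 1.95 in the lines and 1.89 in the parental strains, and for hexokinase of -0.36 in the lines and -0.32 in the parental strains.

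In crosses between strains, each descendant line fixes a mixture of the chromosomes of both parents. An mRNA governed by a nearby variant is known to take the level of the parent that gave the chromosome segment, and an mRNA governed by many variants can fall between the parents or beyond both. The liver makes most plasma proteins, burns and builds fat, makes bile acids from cholesterol and couples drugs and steroids to sugars and sulfate, and the genes of these tasks make up the groups below. In whole liver, fewer cells of a type and less RNA per cell cannot be told apart.

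Differences between the lines and their parental strains were many and mostly small. Of the 7168 ProbeSets, 1328 were called higher in the lines (18.5% of those tested) and 970 lower (13.5%), together 32.1%. The median size of all differences was 0.16, and 151 of the called ones (2.11% of those tested) reached 1 log2 unit, 49 higher (0.684%) and 102 lower (1.42%). Among the 8755 ProbeSets under the limit, 1512 were called higher (17.3%) and 72 lower (0.822%). At 2 log2 units or more, within the 7168, there were 10 higher and 10 lower. The arrays of the lines had slightly higher medians, 3.54 to 3.69, against 3.47 to 3.60 in the parental strains. When all array medians were made equal, 658 ProbeSets were called higher and 1125 lower, so that the share of higher calls was 36.9% in place of 57.8%. All 8 arrays of the lines lay above all 8 parental arrays in 119 ProbeSets (1.66%), and below all of them in 123 (1.72%), together 3.38%. Within the parental strains, the differences between the 5 arrays of 1 scan day and the 3 other arrays had a median size of 0.12. That fit was added after the data had been seen. The 5 arrays came from 1 chip lot and the 3 from another, so scan day and lot cannot be told apart in it. That fit gave 17 calls, and 1049 of the 7168 ProbeSets at an unadjusted p under 0.05, where chance alone gives about 1 in 20. It set 5 arrays against 3, so its number of calls cannot be compared with that of 8 against 8. The 99th percentile of the size was 0.72, against 1.29 for the difference between lines and parental strains.

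**Figure D1:**
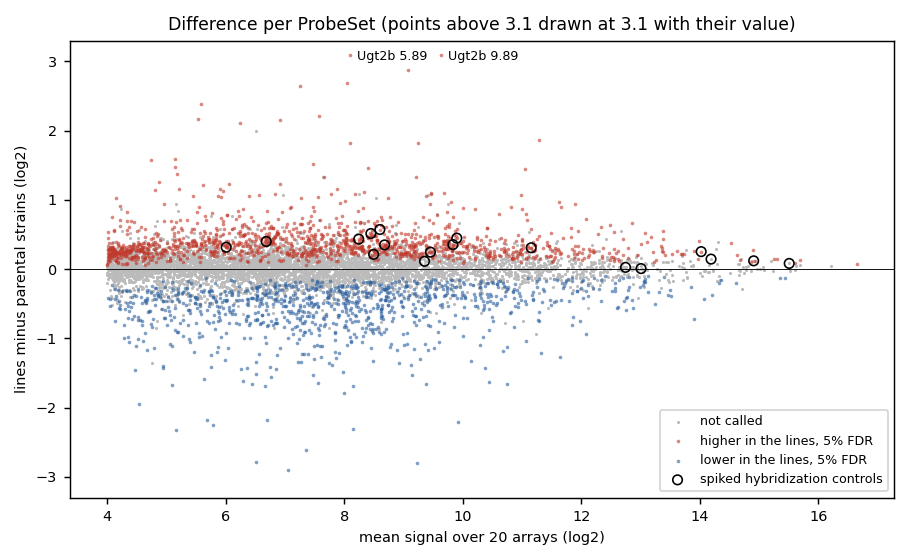
Difference of the lines from the parental strains (log2, y axis) against the mean signal over 20 arrays (log2, x axis), 1 point per ProbeSet with a mean signal of at least 4, with called ProbeSets in colour and the 18 spiked controls as open circles. The 18 control ProbeSets lie between 0.01 and 0.57, and the *Ugt2b* ProbeSets, at 5.89 and 9.89, are drawn at the upper edge.

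*Ugt2b*, a UDP-glucuronosyltransferase that couples steroids and drugs to glucuronic acid, was by far the most changed gene. Its signal was 13.23, 13.59 and 13.81 in the lines (lowest, median and highest of 8 rats), against 3.20, 3.66 and 3.90 in the parental strains. Every rat of both lines thus had a strong signal, and every rat of both parental strains was under the limit of 4. The difference was at least 9.89 (SE 0.10, limma adjusted p = 4.7e-20). In the S-D rats the mean was 13.76. A second ProbeSet of *Ugt2b* read 10.15, 10.44 and 10.58 in the lines and 4.16, 4.62 and 4.72 in the parental strains, a 59.2-fold difference, again without overlap. On the first ProbeSet the difference was at least 10.02 against the parental arrays of the scan day that holds 5 of them. Against those of the other 2 days it was at least 9.74.

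The neighbours of *Ugt2b* on chromosome 14 were higher in the lines as well, by far less. *Ugt2b15* read 11.95, 12.40 and 12.74 in the lines and 11.83, 12.16 and 12.25 in the parental strains, a difference of 0.31 (SE 0.10, limma adjusted p = 0.033). *Ugt2b35* read 13.30, 13.37 and 13.51 in the lines and 12.96, 13.13 and 13.24 in the parental strains, with no overlap and a difference of 0.26 (SE 0.05, adjusted p = 0.0013). *Sult1b1*, a sulfotransferase for phenols and thyroid hormones, rose by 0.61 (SE 0.07, adjusted p = 4.4e-05), also with no overlap. These 4 genes were consecutive among the measured genes of the chromosome. In the scan-day fit *Ugt2b* and *Sult1b1* kept their calls (adjusted p = 1.4e-17 and 0.0055), whereas *Ugt2b15* and *Ugt2b35* did not (0.32 and 0.059). Genes of the Ugt2b family are alike in sequence, and sharing of signal between their probes was not tested.

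Of 6 measured genes of glucuronidation, 5 were called higher and none lower, where 18.6% of all genes were called higher. The remaining pair of called genes make the sugar donor. *Ugp2*, which makes UDP-glucose, rose by 0.45 (SE 0.08, adjusted p = 0.0018), and *Ugdh*, which oxidizes it to UDP-glucuronic acid, by 0.26 (SE 0.09, adjusted p = 0.044). The groups overlapped in both. With equal array medians 3 of the 6 were called higher, and against the parental arrays of the other 2 scan days 1 was. In the scan-day fit only *Ugt2b* of the 6 was called.

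The promoters of the 3 Ugt2b genes are shown because these genes lie side by side and were all called higher, with *Ugt2b* alone at background in the parental strains. HNF1 factors are liver transcription factors that bind a palindrome, searched here as GTTA, any 5 bases, TAAC, which reads alike on both strands. The search covered 250 bases before to 50 bases after each start in the RefSeq promoters of assembly GRCr8. The motif stood in 64 of 27457 promoters (0.233%) and in 3 of the 6 promoters of the glucuronidation genes, which are those printed. It lay at positions -62 to -50 in *Ugt2b*, -66 to -54 in *Ugt2b15* and -75 to -63 in *Ugt2b35*, counted from the start on which the RefSeq promoter window is set, which in *Ugt2b35* lies downstream of the first base of the gene. The whole *Ugt2b* window (chr14:20985199-20985498, plus strand) is followed by the stretches of *Ugt2b15* (chr14:21122760-21122852) and *Ugt2b35* (chr14:21208326-21208418) around the motif, which is in capitals. A match describes the letters of the assembly, not a bound site, and the assembly is not one of the strains measured here. The 3 stretches share the bases just before the motif, so they are not 3 separate finds. *Ugt2b15* and *Ugt2b35* hold the motif and had strong signals in the parental strains, so the motif did not separate *Ugt2b* from them.
Ugt2b: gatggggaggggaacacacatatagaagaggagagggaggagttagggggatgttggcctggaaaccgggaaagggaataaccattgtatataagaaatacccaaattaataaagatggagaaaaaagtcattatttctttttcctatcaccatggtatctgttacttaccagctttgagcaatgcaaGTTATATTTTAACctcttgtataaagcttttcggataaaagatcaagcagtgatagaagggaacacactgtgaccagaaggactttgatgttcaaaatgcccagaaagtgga
Ugt2b15: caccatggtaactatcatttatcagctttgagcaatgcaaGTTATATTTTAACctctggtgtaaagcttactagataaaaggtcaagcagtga
Ugt2b35: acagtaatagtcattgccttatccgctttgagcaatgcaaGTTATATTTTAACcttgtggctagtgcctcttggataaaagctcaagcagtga

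Among the other genes with the largest separation, those higher in the lines had varied roles. *Uba6*, an activating enzyme of the ubiquitin system, read 4.97, 5.89 and 6.07 in the lines and 3.64, 4.01 and 4.62 in the parental strains, a difference of 1.57 (SE 0.19, adjusted p = 4.8e-05). *Dync1li1*, a light intermediate chain of the motor dynein, read 7.98, 8.48 and 8.62 in the lines and 6.36, 7.04 and 7.63 in the parental strains, a difference of 1.52 (SE 0.12, adjusted p = 1.1e-06). *Kpna1*, an importin that carries proteins into the nucleus, read 9.44, 9.98 and 10.19 in the lines and 8.25, 8.49 and 9.17 in the parental strains, a difference of 1.34 (SE 0.11, adjusted p = 1.9e-06). In none of these genes did the groups overlap, and all 3 kept their calls in the scan-day fit. *Trio* rose by 1.22 (SE 0.15), and *Anxa4*, an annexin that binds phospholipids with calcium, by 1.07 (SE 0.18). *Gnb1*, a G protein beta subunit, rose by 0.83 (SE 0.09). *Plin3*, a coat protein of lipid droplets, rose by 0.76 (SE 0.10). Of the 15 genes that were highest in the lines by this rule, *Cyp2d4*, *Tepsin*, *Dhx29* and *Ppp1r2* lost their calls in the scan-day fit (adjusted p = 0.17, 0.26, 0.095 and 0.063). *Acp5*, an acid phosphatase of macrophages and osteoclasts, rose by 0.69 (SE 0.13, adjusted p = 0.0018), with a scan-day adjusted p of 0.039. For *Ppp1r2*, at 0.68, another ProbeSet of higher rank gave 0.04 and was not called.

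**Figure D2:**
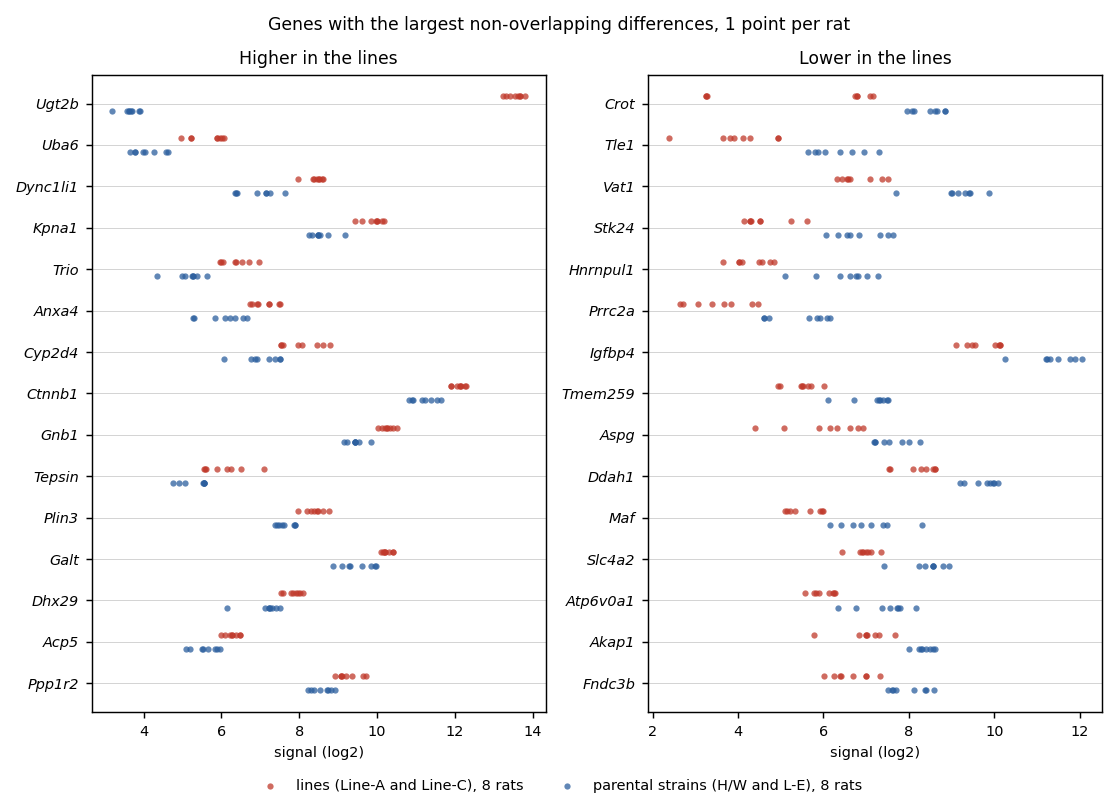
Signal (log2, x axis) of the 15 genes most higher (left) and the 15 most lower (right) in the lines among those whose groups do not overlap, 1 point per rat, lines above parental strains in each row. *Ugt2b* has the widest gap, from a highest parental value of 3.90 to a lowest value of 13.23 in the lines.

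Beta-catenin, encoded by *Ctnnb1*, joins cells to each other and carries the Wnt signal that sets the zones of the liver lobule. It read 11.89, 12.13 and 12.29 in the lines and 10.82, 11.18 and 11.65 in the parental strains on the ProbeSet with the larger difference, 0.90 (SE 0.07, adjusted p = 8.5e-07). The brightest ProbeSet of *Ctnnb1* gave 0.46 (SE 0.05) and a weaker one 0.64 (SE 0.15), so that all 3 ProbeSets above the limit were called higher. The groups were apart on the first 2 of these and overlapped on the weakest. *Galt*, the uridylyltransferase of galactose breakdown, read 10.11, 10.21 and 10.42 in the lines and 8.87, 9.45 and 9.98 in the parental strains, a difference of 0.76 (SE 0.09, adjusted p = 3.3e-05), with no overlap. Both genes are on a list of 6 names, taken from the study's account of genes outside both parental strains in both lines, and 5 of the 6 were found by symbol on the array. *Stt3b* is on it under RGD1311563, which RefSeq gives as its synonym. *Stt3b*, a catalytic subunit of the enzyme that attaches sugar chains to new proteins, rose by 0.59 (SE 0.06, adjusted p = 1.6e-05). *Asgr2*, a subunit of the asialoglycoprotein receptor of hepatocytes, fell by 0.45 (SE 0.05, adjusted p = 3.1e-05). *Slco2a1*, a prostaglandin transporter, rose by 0.29 on its brightest ProbeSet (SE 0.05, adjusted p = 0.0020) and fell by 1.08 on another (SE 0.08, adjusted p = 8.5e-07), so that its direction depended on the probes. This list was drawn up on the same rats, so the 5 calls are not independent evidence.

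The genes lower in the lines included more large differences. *Crot*, which exchanges carnitine on medium-chain fatty acids in peroxisomes, read 3.24, 6.76 and 7.17 in the lines and 7.96, 8.56 and 8.85 in the parental strains, a difference of -2.91 (SE 0.40, adjusted p = 0.00016). *Tle1*, a Groucho corepressor, read 2.38, 4.01 and 4.94 in the lines and 5.64, 6.21 and 7.30 in the parental strains, a difference of -2.33 (SE 0.32, adjusted p = 0.00019). *Vat1*, a vesicle membrane protein, read 6.31, 6.61 and 7.52 in the lines and 7.71, 9.23 and 9.89 in the parental strains, a difference of -2.30 (SE 0.24, adjusted p = 1.6e-05). The groups did not overlap in any of the 3. *Stk24*, a protein kinase, read 4.13, 4.41 and 5.62 in the lines and 6.06, 6.72 and 7.63 in the parental strains, a difference of -2.25 (SE 0.27, adjusted p = 5.9e-05). *Hnrnpul1*, an RNA-binding protein of the nucleus, read 3.65, 4.28 and 4.85 in the lines and 5.11, 6.69 and 7.29 in the parental strains, a difference of -2.17 (SE 0.21, adjusted p = 6.5e-06). *Igfbp4*, which binds insulin-like growth factors in plasma, read 9.11, 9.79 and 10.14 in the lines and 10.25, 11.40 and 12.05 in the parental strains, a difference of -1.67 (SE 0.19, adjusted p = 3.1e-05). These 3 were also free of overlap, and all 6 kept their calls in the scan-day fit, with adjusted p-values of 0.00098 (*Hnrnpul1*) to 0.015 (*Tle1* and *Crot*).

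*Prrc2a* was under the limit of 4 on average in the lines and fell by at least 1.94 (SE 0.25, adjusted p = 8.1e-05). *Ddah1*, which breaks down the nitric oxide synthase inhibitor dimethylarginine, fell by 1.53 (SE 0.15), and *Maf*, a basic leucine zipper transcription factor, by 1.52 on 1 ProbeSet and 0.90 on another. *Slc4a2*, a chloride and bicarbonate exchanger, fell by 1.48 (SE 0.16). The proton pump subunit gene *Atp6v0a1* fell by 1.44 (SE 0.21), and *Akap1*, which anchors protein kinase A at mitochondria, by 1.39 (SE 0.16). Of the 15 genes that were lowest in the lines by this rule, only the asparaginase gene *Aspg*, at -1.56 (SE 0.28), lost its call in the scan-day fit (adjusted p = 0.061). With parents of the 5-array day alone *Atp6v0a1* differed by -1.77, and with those of the other 2 days by -0.86. In *Tmem259* and *Fndc3b* the ProbeSets disagreed, with -1.67 against -0.23 and -1.35 against -0.14, and the second of each pair was not called. *Fndc3b* and *Tmem259* therefore differed on part of their probes only.

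Taken singly, Line-A was called apart from the parental strains for 819 ProbeSets higher (11.4%) and 753 lower (10.5%), together 21.9%, and Line-C for 583 higher (8.13%) and 522 lower (7.28%), together 15.4%. At 1% FDR 798 were left for Line-A (11.1%) and 459 for Line-C (6.4%), and 969 (13.5%) for both lines pooled. These 2 comparisons share the parental arrays. With equal array medians Line-A had 452 higher and 925 lower, so that 32.8% of its calls were higher, in place of 52.1%, and Line-C had 285 higher and 575 lower, so that 33.1% were higher, in place of 52.8%. The lines differed from each other in 207 ProbeSets (2.89%), 111 higher in Line-A (1.55%) and 96 lower (1.34%), and 80 were left at 1% FDR (1.12%). Among the 30 genes above they did so for *Crot* only. Line-A read 6.79 in 1 rat and 3.24 to 3.26 in the other 3, and Line-C averaged 6.95, a difference between the lines of -2.81 (adjusted p = 0.018). A second *Crot* ProbeSet, which was the brighter, gave -2.83 between the lines (adjusted p = 0.023) and -2.21 between lines and parental strains. *RT1-N2*, a class I major histocompatibility gene, averaged 8.09 in Line-A and 3.58 in Line-C, against 8.03 in H/W and 9.22 in L-E. Line-C was under the limit, so the difference between lines and parental strains was at least 2.79 in size (SE 0.43, adjusted p = 0.00044). Line-C was called apart from the parental strains (adjusted p = 2.6e-05), and Line-A was not (0.42). *Lyz2*, the lysozyme of macrophages, averaged 7.22 in Line-A and 9.04 in Line-C, against 9.11 in H/W and 9.02 in L-E. Its difference of -0.93 lay in Line-A. *Spink1*, a trypsin inhibitor, averaged 8.40 in Line-A and 6.49 in Line-C, against 6.16 in H/W and 4.50 in L-E, a difference of 2.11 (SE 0.30, adjusted p = 0.00021). A second *Spink1* ProbeSet gave 2.38 and another 0.28, which was not called. On the first ProbeSet the difference was 2.62 with parents of the 5-array day alone, and 1.23 with those of the other 2 days.

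A ProbeSet lay outside both parental strains when the mean of the lines was called apart from H/W and from L-E in 1 direction. This held for 285 ProbeSets higher (3.98%) and 325 lower (4.53%), together 8.51%. With equal array medians it held for 140 higher and 350 lower, and in the scan-day fit for 39 higher and 89 lower. Set against H/W by itself, the lines were called apart in 996 ProbeSets (13.9%), 528 higher (7.37%) and 468 lower (6.53%), and against L-E by itself in 2591 (36.1%), 1471 higher (20.5%) and 1120 lower (15.6%). At 1% FDR these were 461 (6.43%) and 1089 (15.2%). Both counts rest on the same arrays of the lines. The parental strains differed from each other in 456 (6.36%), 199 higher in H/W (2.78%) and 257 lower (3.59%), with 195 left at 1% FDR (2.72%). Beside *Ugt2b*, the genes outside both included *Mlf2* at -1.15 (SE 0.07), *Tle5*, a short Groucho relative, at -1.28 (SE 0.11) and *Ptms*, parathymosin, at -1.21 (SE 0.11). In each of these the 8 rats of the lines were below all 8 parental rats, and the scan-day fit gave adjusted p-values of 2.7e-05, 0.00040 and 0.00040. *Serpina3m* and *Serpina4*, serine protease inhibitors of plasma, were outside both in the other direction, at 0.50 (SE 0.05) and 0.39 (SE 0.04).

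In other genes the lines were called apart from 1 parental strain and not from the other, which does not show that they matched the other. Among the 456 ProbeSets in which the parental strains differed, the lines were called apart from H/W only in 113 and from L-E only in 249. These counts come from comparisons that share arrays and are given as a description. Each comparison had its own adjustment, and H/W and L-E were spread unevenly over the scan days. The counts therefore do not show which parental strain the lines resembled more. *Gne*, which starts the synthesis of sialic acid, averaged 5.05 in Line-A and 5.21 in Line-C, against 9.22 in H/W and 5.40 in L-E, so that only H/W was high. *Lss*, the lanosterol synthase of cholesterol synthesis, averaged 6.57 in Line-A and 6.92 in Line-C, against 8.95 in H/W and 6.77 in L-E. Only H/W was high here too. *Nupr1*, a stress-induced nuclear protein, averaged 8.39 in Line-A and 7.64 in Line-C, against 5.40 in H/W and 7.95 in L-E, so that only H/W was low. *Rcan2*, a calcineurin regulator, was under the limit in the lines (3.76 and 3.83) and averaged 5.59 in H/W and 4.24 in L-E, a difference from H/W of at least 1.79 in size. On the other side, *Ythdf2*, a reader of methylated adenine in mRNA, averaged 9.45 in Line-A and 7.19 in Line-C, against 7.56 in H/W and 3.79 in L-E. The Line-C rats were split, at 5.43, 5.54, 8.54 and 9.23, and a second ProbeSet of *Ythdf2*, under the limit on average, was not called. *Tmem150c* averaged 5.62 in Line-A and 5.58 in Line-C, against 6.14 in H/W and 8.29 in L-E, so that only L-E was high. *Rtn4ip1*, a mitochondrial protein, averaged 5.95 in Line-A and 5.29 in Line-C, against 5.47 in H/W and 3.46 in L-E. *Lasp1*, an actin-binding protein, averaged 5.15 in Line-A and 5.45 in Line-C, against 5.59 in H/W and 7.39 in L-E on this ProbeSet, whereas its brighter ProbeSet gave no call.

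**Figure D3:**
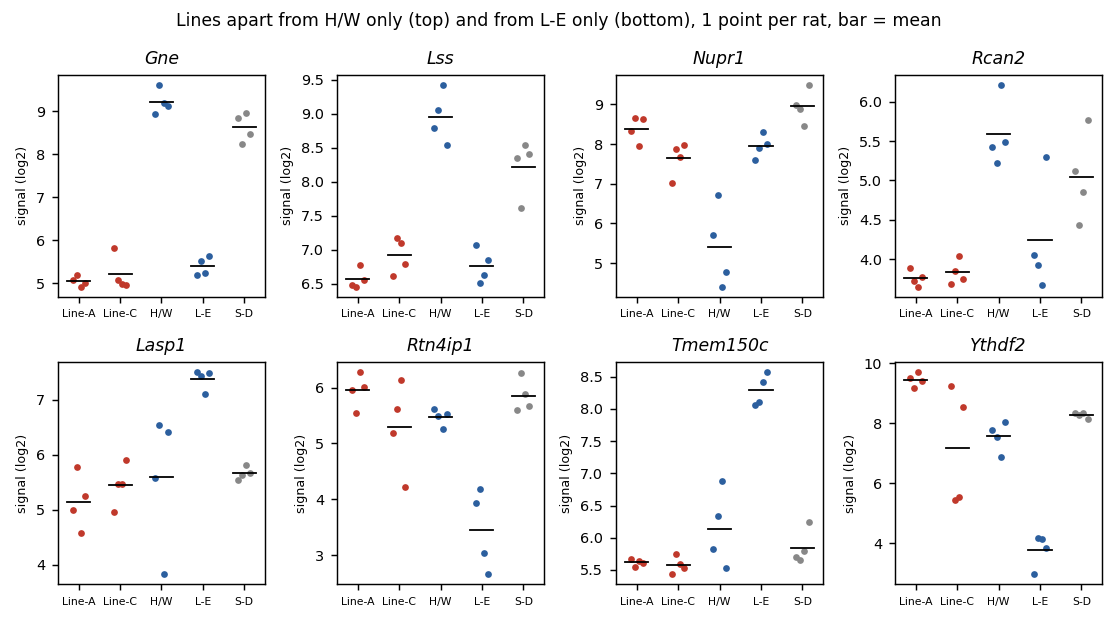
Signal (log2, y axis) of 8 genes by line and strain, 1 point per rat and a bar at the mean of 4. In the upper row the lines were called apart from H/W only, as for *Gne* with means of 5.05 and 5.21 in the lines against 9.22 in H/W, and in the lower row from L-E only, as for *Tmem150c* with 5.62 and 5.58 against 8.29 in L-E.

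Genes were then counted by function, each by its brightest ProbeSet. Over all 5388 genes, 1001 were called higher (18.6%) and 662 lower (12.3%), with a median difference of 0.04. With equal array medians 476 of all genes were higher and 773 lower, with a median of -0.02, and list counts given for that scaling are to be read against these. Endoplasmic reticulum folding and glucuronidation were weighted to the higher side, and fatty acid oxidation and cholesterol synthesis to the lower side. Ribosomal proteins (8 higher and 1 lower of 24) and subunits of oxidative phosphorylation (12 higher and 2 lower of 52) had small differences, with medians of 0.04 and 0.05. With equal array medians their counts were 5 higher and 2 lower, and 3 higher and 4 lower, and both medians were below 0. In the scan-day fit 130 of all genes were called higher and 146 lower. Genes with male-biased expression in rat liver had 2 calls higher and 4 lower of 14, and 3 of the lower ones were kept there. *Cyp3a2* and *Sult1e1*, described below, are 2 of the 4, beside *Mup5* and *Slco1a1*. Genes with female-biased expression had 3 calls higher and 3 lower of 9. The lower ones were *Cyp2c7*, *Cyp2a1* and *Sult2a6*, and only *Cyp2a1* was called in the scan-day fit.

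**Figure D4:**
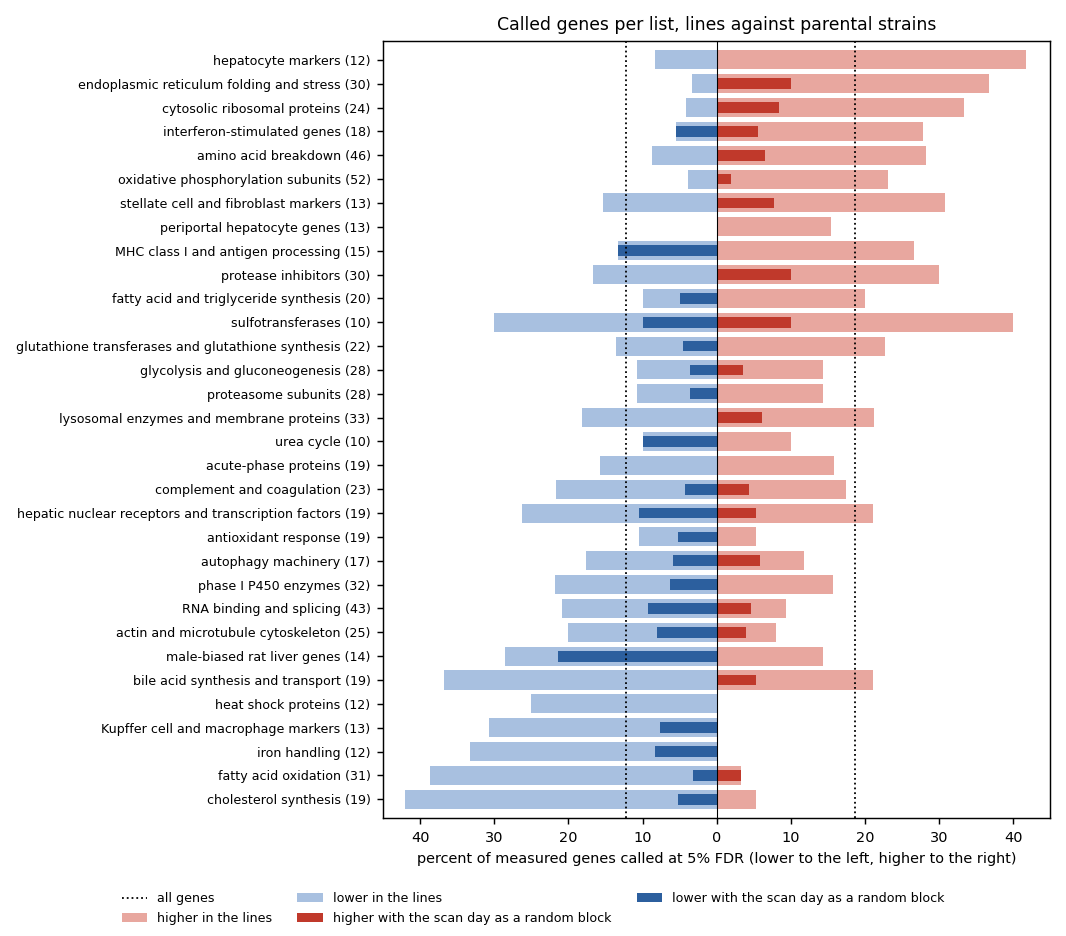
Percent of the measured genes of each list (number in brackets, lists of 10 or more) called higher, to the right, or lower, to the left, in the lines, with the scan-day fit as the narrow dark bars and the shares over all genes, 18.6% and 12.3%, as dotted lines. Fatty acid oxidation had 12 of 31 genes lower and 1 higher, and cholesterol synthesis 8 of 19 lower and 1 higher.

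In the endoplasmic reticulum, new secreted proteins are folded, cross-linked by disulfide bonds and given sugar chains. Of 30 measured genes of this machinery 11 were called higher and 1 lower, with a median difference of 0.22. With equal array medians 10 were higher and 1 lower, with a median of 0.16. *Hspa5*, the main chaperone (BiP), read 13.21, 13.38 and 13.67 in the lines and 12.78, 12.90 and 13.25 in the parental strains, a difference of 0.47 (SE 0.08, adjusted p = 0.00089). Its ranges met at their edges. The co-chaperones *Sdf2l1*, *Dnajb11* and *Dnajc3* rose by 1.10 (SE 0.20), 0.62 (SE 0.13) and 0.36 (SE 0.09). Among the disulfide isomerases *Pdia3* rose by 0.66 (SE 0.14), *Pdia4* by 0.52 (SE 0.12) and *Pdia6* by 0.59 (SE 0.08), whereas *P4hb*, at -0.04, was not called. Of the oligosaccharyltransferase, *Rpn1* and *Magt1* rose with *Stt3b*, by 0.39 (SE 0.09) and 0.29 (SE 0.06), and *Ddost* fell by 0.19 (SE 0.06). *Creld2*, a secreted protein induced by folding stress, rose by 0.76 (SE 0.23). *Sdf2l1* differed from L-E by 1.77 and from H/W by 0.44, and only the first was called. The chaperones *Hsp90b1*, *Calr* and *Canx* differed by 0.07, -0.15 and -0.10 and were not called. In the scan-day fit *Hspa5*, *Pdia6* and *Stt3b* were called (adjusted p = 0.035, 0.012 and 0.0024), and the others were not.

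The promoters of *Hspa5*, *Dnajc3* and *Creld2* are printed because they hold the endoplasmic reticulum stress response element and the 3 genes were called higher. The element was searched as CCAAT, any 9 bases, CCACG on both strands of the same windows. It stood in 21 of 27457 promoters (0.0765%) and in 7 of 27 promoters found for genes of this list. The other 4, of *Hsp90b1*, *Calr*, *Canx* and *Xbp1*, belong to genes that were not called, so the element did not separate the genes that moved from those that did not. It lay at -43 to -25 in *Hspa5*, -133 to -115 in *Dnajc3* and, on the opposite strand, at -145 to -127 in *Creld2*, whose window is set on a start inside the annotated gene. The whole *Hspa5* window (chr3:38452766-38453065) and the stretches around the element of *Dnajc3* (chr15:102432494-102432592) and *Creld2* (chr7:121789199-121789297) follow on the plus strand, with the element in capitals.
Hspa5: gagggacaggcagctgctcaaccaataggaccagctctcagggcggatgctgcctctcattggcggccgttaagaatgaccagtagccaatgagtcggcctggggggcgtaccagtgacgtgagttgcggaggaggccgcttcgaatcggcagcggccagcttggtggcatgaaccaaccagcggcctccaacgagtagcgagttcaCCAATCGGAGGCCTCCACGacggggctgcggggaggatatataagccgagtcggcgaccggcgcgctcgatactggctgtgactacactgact
Dnajc3: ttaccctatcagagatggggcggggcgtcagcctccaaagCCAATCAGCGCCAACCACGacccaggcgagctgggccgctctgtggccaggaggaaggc
Creld2: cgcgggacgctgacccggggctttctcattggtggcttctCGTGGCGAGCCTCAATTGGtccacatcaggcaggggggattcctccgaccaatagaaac

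Fatty acid oxidation breaks fatty acids down in mitochondria and peroxisomes. Of 31 measured genes 12 were called lower and 1 higher, with a median difference of -0.23, and 12 were lower with equal array medians. *Cd36*, which takes up fatty acids at the cell surface, read 5.95, 6.43 and 6.52 in the lines and 6.49, 7.57 and 8.89 in the parental strains, a difference of -1.24 (SE 0.29, adjusted p = 0.0092). The acyl-CoA synthetase *Acsl4* fell by 0.69 (SE 0.13) and the fatty acid carrier *Fabp1* by 0.13 (SE 0.03). In the peroxisome, the bifunctional enzyme *Ehhadh* read 11.41, 11.67 and 12.53 in the lines and 12.00, 12.65 and 13.69 in the parental strains, a difference of -0.94 (SE 0.16, adjusted p = 0.0010). *Acox3* fell by 0.73 (SE 0.13) and *Hsd17b4* by 0.27 (SE 0.07) in the same organelle, where *Crot* also acts. In mitochondria *Eci1*, an enoyl-CoA isomerase, read 10.24, 10.89 and 11.43 in the lines and 11.20, 11.78 and 12.44 in the parental strains, a difference of -1.04 (SE 0.18, adjusted p = 0.0012). *Decr1*, a dienoyl-CoA reductase, fell by 0.81 (SE 0.15). The acyl-CoA dehydrogenases *Acadl* and *Acads* fell by 0.44 (SE 0.07) and 0.40 (SE 0.08). *Hadha* and *Hadhb*, which form the trifunctional protein, fell by 0.49 (SE 0.10) and 0.47 (SE 0.12). *Echs1*, a hydratase of the same pathway, rose by 0.35 (SE 0.06). The entry enzyme *Cpt1a* differed by -0.56 (SE 0.30) and was not called (adjusted p = 0.13). The groups overlapped for *Cd36*, *Ehhadh* and *Eci1*. In the scan-day fit *Acadl* was called lower (adjusted p = 0.024) and *Echs1* higher (0.044), whereas *Ehhadh* and *Acox3*, at 0.051 and 0.050, were just not. *Cyp4a3*, which hydroxylates fatty acids at their far end, read 8.43, 10.05 and 10.93 in the lines and 10.51, 11.36 and 12.26 in the parental strains, a difference of -1.63 (SE 0.30, adjusted p = 0.0019). It was not called in the scan-day fit (adjusted p = 0.071).

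**Figure D5:**
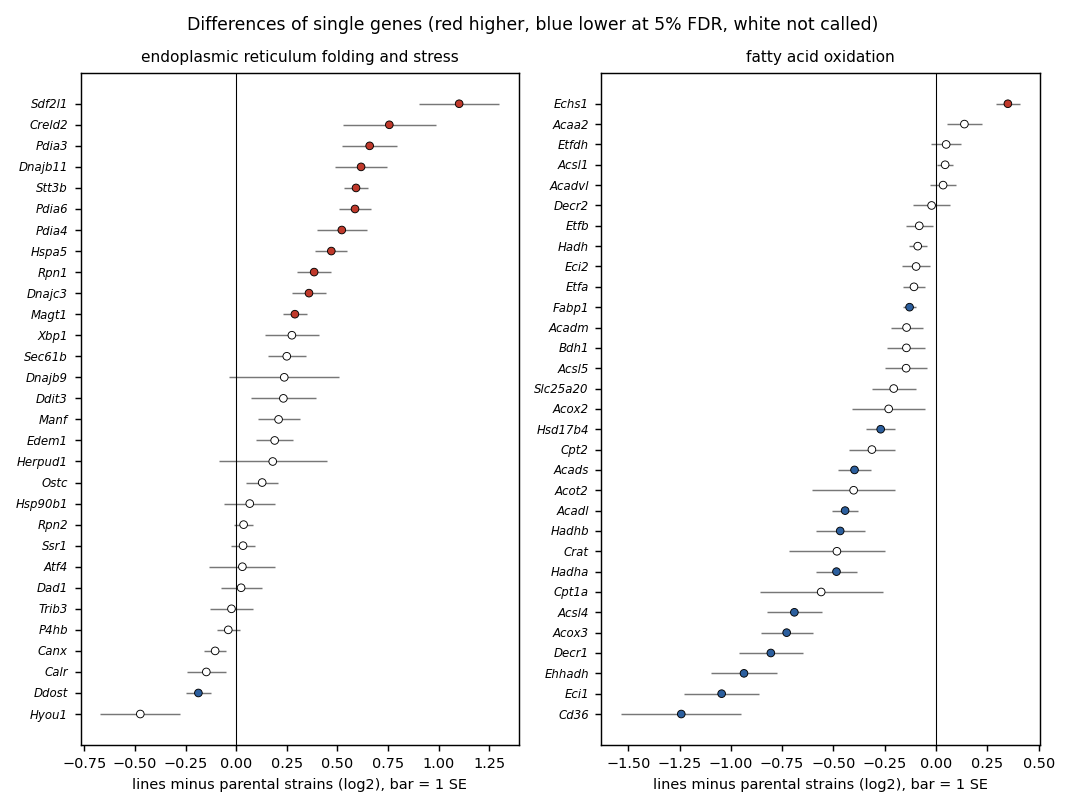
Difference of the lines from the parental strains (log2, x axis, bar 1 SE) for each measured gene of endoplasmic reticulum folding (left) and fatty acid oxidation (right). On the left 11 genes were called higher and 1 lower, and on the right 1 higher and 12 lower.

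Among 19 genes of cholesterol synthesis 8 were called lower and 1 higher, with a median difference of -0.31. *Srebf2*, the transcription factor that drives the pathway, read 5.90, 7.25 and 7.35 in the lines and 7.37, 8.15 and 8.65 in the parental strains, a difference of -1.11 (SE 0.20, adjusted p = 0.0014). Its groups were apart by a narrow gap. *Sqle*, squalene epoxidase, fell by 0.96 (SE 0.26), *Idi1*, isopentenyl diphosphate isomerase, by 0.84 (SE 0.24) and *Fdft1*, squalene synthase, by 0.58 (SE 0.11). *Idi1* was also lower in Line-A than in Line-C, by 1.56 (adjusted p = 0.033). *Mvk*, *Sc5d* and *Nsdhl* fell by 0.64, 0.45 and 0.31, and *Mvd* rose by 0.52 (SE 0.16). *Lss*, described above, was apart from H/W only, and it alone of the list kept its call in the scan-day fit (adjusted p = 0.012).

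Fatty acid synthesis had 4 genes higher and 2 lower of 20, or 2 and 2 with equal array medians. Its largest difference was on the higher side. *Scd*, stearoyl-CoA desaturase, read 10.14, 12.16 and 13.77 in the lines and 8.75, 9.99 and 12.65 in the parental strains, a difference of 1.87 (SE 0.43, adjusted p = 0.0083). *Fasn*, fatty acid synthase, rose by 0.87 (SE 0.28) and was higher in Line-A than in Line-C by 1.80 (adjusted p = 0.029). *Acaca*, acetyl-CoA carboxylase, rose by 0.79 (SE 0.20). The ranges of all 3 overlapped widely. *Mlxipl*, the carbohydrate response factor ChREBP, fell by 1.10 (SE 0.16) and *Fads2*, a desaturase, by 0.81 (SE 0.16). Only *Mlxipl* kept its call in the scan-day fit (adjusted p = 0.019).

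Of 32 genes of the P450 list, 5 were called higher and 7 lower, or 1 and 8 with equal array medians. The 7 include *Por*, which is not a P450 but the reductase that supplies these enzymes with electrons. It fell by 1.12 (SE 0.22). *Cyp2a1* fell by 0.84 (SE 0.11) and *Cyp3a2*, a male-biased enzyme, by 0.44 (SE 0.07), and these 2 kept their calls in the scan-day fit (adjusted p = 0.010 and 0.040). *Cyp2d4* was the gene of this list with the largest rise. Of 10 sulfotransferase genes 4 were higher and 3 lower. *Sult1e1*, estrogen sulfotransferase, read 13.20, 13.60 and 13.90 in the lines and 14.18, 14.27 and 14.46 in the parental strains, a difference of -0.72 (SE 0.05, adjusted p = 4.6e-07). There was no overlap, and the scan-day adjusted p was 0.00011. *Sult2a6* fell by 1.66 (SE 0.29) and *Sult1a1*, a phenol sulfotransferase, rose by 0.43 (SE 0.10). Neither was called in the scan-day fit (adjusted p = 0.059 and 0.15). Bile acid genes were called higher for 4 and lower for 7 of 19, or 1 and 7 with equal array medians. *Cyp8b1*, which sets the share of cholic acid, fell by 0.84 (SE 0.29), and *Abcb1a*, a drug efflux pump, by 1.05 (SE 0.20). *Hsd3b7*, an early enzyme of the pathway, rose by 0.38 (SE 0.06) and alone of the list was called in the scan-day fit (adjusted p = 0.033).

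Of 46 genes of amino acid breakdown 13 were called higher and 4 lower, and with equal array medians 7 were higher and 4 lower, with a median just under 0. *Gnmt*, which consumes S-adenosylmethionine, read 12.42, 12.88 and 13.34 in the lines and 12.01, 12.30 and 12.43 in the parental strains, a difference of 0.64 (SE 0.10, adjusted p = 0.00058). *Haao*, an enzyme of tryptophan breakdown, rose by 0.44 (SE 0.05) and *Mccc2*, of leucine breakdown, by 0.48 (SE 0.08). These 3 kept their calls in the scan-day fit. Of 43 RNA-binding and splicing genes 4 were higher and 9 lower. *Ptbp1*, which represses exons, read 8.73, 8.96 and 9.12 in the lines and 9.24, 9.79 and 10.12 in the parental strains, a difference of -0.82 (SE 0.10, adjusted p = 4.7e-05), without overlap. *Snrnp70*, a core protein of the U1 particle, read 8.21, 8.34 and 8.47 in the lines and 8.61, 8.93 and 9.18 in the parental strains, a difference of -0.58 (SE 0.07, adjusted p = 3.1e-05), also without overlap. *Pcbp2* fell by 0.52 (SE 0.06) and *Dhx36*, a helicase of G-quadruplexes, rose by 1.16 (SE 0.15). All 4 were called in the scan-day fit.

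Markers of the cell types were read beside these results. All 12 hepatocyte markers were measured, and *Alb*, albumin, was among the brightest signals, and its difference of 0.08 was 0.02 with equal array medians and was not called there. Whether its probes were saturated cannot be read from the deposited values, so it says little about hepatocyte content. Their mean level per array was 14.56 to 14.67 in the lines and 14.33 to 14.70 in the parental strains, and 5 were called higher and 1 lower, or 1 and 1 with equal array medians. Of 13 Kupffer cell and macrophage markers none was called higher and 4 lower (*Cd68*, *Csf1r*, *Lyz2* and *Laptm5*, by 0.54, 0.46, 0.93 and 0.33), whereas *Clec4f*, *C1qa*, *C1qb* and *C1qc* were not called. The mean level of the 13 was 6.93 to 7.81 in the lines, with a median of 7.36, and 7.40 to 8.07 in the parental strains, with a median of 7.59. Of 8 class II histocompatibility genes none was higher and 4 lower (*RT1-Bb*, *RT1-Da*, *RT1-Db1* and *Cd74*, by 0.997, 0.58, 0.61 and 0.48), each with a called difference from L-E and none from H/W. Their mean level was 6.95 to 7.61 in the lines and 7.11 to 8.21 in the parental strains. Only *Lyz2* of these 8 genes was called in the scan-day fit (adjusted p = 0.027). Of 13 stellate cell and fibroblast markers 4 were higher (*Sparc*, *Lrat*, *Col3a1* and *Reln*, by 0.95, 0.61, 0.50 and 0.39) and 2 lower (*Acta2* and *Ecm1*, by 0.66 and 0.22), and 11 of the 13 differences were above 0. Their mean level was 5.56 to 6.15 in the lines and 5.32 to 6.28 in the parental strains, and *Sparc* alone was called in the scan-day fit (adjusted p = 0.013). Of 8 endothelial markers *Stab1* fell by 0.73, and of 2 measured cholangiocyte markers *Slc4a2* was the lower one called. The part of these cell types in the other differences was not tested. The brighter *Ahr* ProbeSet was at 3.09 to 3.20 in the lines and 2.99 to 3.16 in the parental strains, below the limit of 4.

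Called genes were also placed along the chromosomes. On GRCr8, 5373 of the genes had a position, and 572 of them stood in 258 runs of at least 2 consecutive measured genes called in 1 direction. There were 41 runs of 3 or more and 12 of 4 or more, where 18.6% of all genes were called higher and 12.3% lower. With shares of this size runs also arise when called genes are placed at random. Whether there were more runs than that was not tested, and the runs below are given as a description. The longest run had 6 genes, all higher, on chromosome 2, with *Rnf13* at 0.18, *Serp1* at 0.22, *Selenot* at 0.23, *Aadac* at 0.56, *Mbnl1* at 0.35 and *Dhx36* at 1.16. In the scan-day fit *Aadac* and *Dhx36* of the 6 were called (adjusted p = 0.031 and 0.0053), and *Rnf13*, *Serp1*, *Selenot* and *Mbnl1* were not (0.19, 0.066, 0.078 and 0.29), so that the run was broken. On chromosome 4 (159305927 to 159478878) *Usp5*, *Ptms*, *Mlf2* and *Cops7a* fell by 0.41, 1.21, 1.15 and 0.48. *Ptms* read 10.41, 10.60 and 10.72 in the lines and 11.15, 11.88 and 12.15 in the parental strains. *Mlf2*, its near neighbour, read 8.22, 8.51 and 8.63 in the lines and 9.27, 9.63 and 9.85 in the parental strains. Neither gene overlapped between the groups, and both were called in the scan-day fit, whereas *Usp5* and *Cops7a* were not (adjusted p = 0.10 and 0.084).

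On chromosome 7 a run of *Tle5*, *Ncln*, *Nfic* and *Smim24* fell by 1.28, 0.85, 0.62 and 1.22. A short way on, *Eef2*, the elongation factor of translation, *Map2k2*, a kinase of the ERK pathway, and *Sgta*, a co-chaperone, fell by 0.55, 0.54 and 0.65. *Eef2* read 12.32, 12.50 and 12.73 in the lines and 12.71, 13.14 and 13.26 in the parental strains, with ranges that met at the edge. *Eef2*, *Map2k2* and *Sgta* were all called in the scan-day fit (adjusted p = 0.012, 0.0067 and 0.0025), whereas of the run before them *Tle5* and *Smim24* were called (0.00040 and 0.019) and *Ncln* and *Nfic* were not (0.31 and 0.33). On chromosome 6 the run of *Mapre3*, *Hadhb*, *Hadha* and *Rab10* fell by 0.29, 0.47, 0.49 and 0.55, and holds both subunits of the trifunctional protein. Only *Rab10* of these was called in the scan-day fit (adjusted p = 0.030), with 0.33 for *Mapre3*, 0.22 for *Hadhb* and 0.11 for *Hadha*. On chromosome 8 *Sik3* and the apolipoprotein genes *Apoa1*, *Apoc3* and *Apoa4* rose by 0.31, 0.37, 0.13 and 0.20, and none of the 4 was called in the scan-day fit (adjusted p = 0.29, 0.20, 0.29 and 0.084). On chromosome 14 *Cxcl3*, *Afm* and *Afp* rose by 0.26, 0.44 and 1.08, on the chromosome of the glucuronidation run. *Afm* was called in the scan-day fit (adjusted p = 0.036), and *Cxcl3* and *Afp* were not (0.29 and 0.11). *Alb*, also in a run of 3 or more genes, rose by less than *Cxcl3*. It was not called in the scan-day fit (adjusted p = 0.21) or with equal array medians. *Afp*, alpha-fetoprotein, differed from L-E by 2.10 and from H/W by 0.06, and only the first was called. The positions are those of the RefSeq assembly, and which parent gave each segment was not measured.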

How the data were processed

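Total RNA from the livers of 20 male rats, 1 rat per array, was measured on Affymetrix RAE230A arrays. The deposited values are log2 signals per ProbeSet, made by the authors with GC-RMA (R 2.6.1, affy 1.12.0 and GCRMA 2.10.0 in the submitters' processing notes), which corrects background by probe sequence, normalizes over all arrays and sums the probes. Arrays carry no read depth, and their number limits the precision. The scan day and chip lot were taken from the deposited scanner headers. The self-test of the fit was run on simulated data.

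All 20 arrays were fitted with a mean per strain or line in limma 3.58.1 (R 4.3.3), the lines minus parental strains contrast weighting the 4 groups equally. The two-sided moderated test was adjusted by Benjamini-Hochberg over all 15923 ProbeSets and called at 5% FDR. A scan-day random block (duplicateCorrelation, consensus correlation 0.18) was an alternative. The limit of 4 was applied to the mean of the 20 arrays. A gene symbol was used where a ProbeSet had exactly 1 (12789 ProbeSets). Genes were named by rule: the 15 highest and 15 lowest non-overlapping genes, up to 4 called genes per list, 4 per parent-specific class, genes of runs of 3 or more, the list of the study, and *Ahr* and *Alb*. Others, such as *Hspa5*, *Pdia6*, *Haao* and genes that were not called, were named after their values were seen. The comparison and the gene lists were chosen with earlier results of these data known. Where a group was under the limit, its difference is given as "at least". The alternatives tried were a variance trend, weights per array, quantile normalization of the deposited values, array medians set equal, the replicate number as a block, the parental arrays of 1 scan day or of the others, no S-D arrays, a fit on ProbeSets above the limit only, a limit of 6, a 1% FDR, a limit of 1 log2 unit, and each array left out. Each array was a separate rat.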

Additional observations from a re-analysis of the deposited data

Results flagged for a closer look

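Single rats stood apart from the other 3 of their group in 12 of 164 groups looked at, which were the 4 groups of 41 genes, and chance alone gives about 1 in 20. In the lines, *Crot* read 6.79 in Line-A replicate 1 and 3.24 to 3.26 in the others, *Akap1* read 5.78 in Line-A replicate 4 (others 6.999 to 7.02) and *Slc4a2* 6.45 in Line-A replicate 1 (others 6.91 to 6.999). *Atp6v0a1* read 5.57 in Line-C replicate 3 (others 6.13 to 6.24), *Gne* 5.81 in Line-C replicate 1 (others 4.96 to 5.07) and *Uba6* 5.23 in Line-C replicate 4 (others 5.97 to 6.07). In H/W replicate 4 the values of *Acp5* (5.08, others 5.83 to 5.96), *Atp6v0a1* (6.34, others 7.56 to 7.81) and *Igfbp4* (10.25, others 11.77 to 12.05) were all low. *Dync1li1* read 6.91 in H/W replicate 2 (others 6.36 to 6.40), *Tepsin* 4.76 in H/W replicate 1 (others 5.53 to 5.56) and *Dhx29* 6.15 in L-E replicate 3 (others 7.11 to 7.26).

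The difference of *Crot* from the parental strains was not the same in both lines. Line-A minus Line-C was -2.81, with means of 4.14 and 6.95 (limma adjusted p = 0.018).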

How the results depend on the processing

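A random block for the scan day left 385 ProbeSets called between lines and parental strains (160 higher, 225 lower), 479 for Line-A, 241 for Line-C and 128 outside both parental strains. Of 286 named genes called, 198 lost their call there, 136 with the parental arrays of the other 2 scan days (chosen after seeing the data), 56 with equal array medians, and none turned its direction under any alternative. Against the parental arrays of those 2 days, 999 were called, 966 for Line-A and 125 outside both, and against those of the 5-array day Line-A had 2361. At 1% FDR the counts were 969, 798 for Line-A, 459 for Line-C and 229 outside both. With array weights Line-C had 2028 calls. Counting differences of at least 1 log2 unit left 151 (chosen after seeing the data). Leaving out 1 array at a time gave 1683 to 2536 calls, 1080 to 1771 for Line-A, 705 to 1247 for Line-C (705 without Line-C replicate 3) and 427 to 701 outside both. The replicate block gave 2172, 1550, 1025 and 575 calls for these 4 results. The numbers did not pair the rats, since 4 of 24 same-numbered pairs of arrays correlated above 0.1 in their deviations (-0.34 to 0.22). With equal array medians the 4 counts were 1783, 1377, 860 and 490, and the median difference of all ProbeSets was -0.03 in place of 0.03. The other settings left these counts within 1.5 times. Of the called ProbeSets, 548 had a difference larger in size than that of any spiked control (192 higher, 356 lower), and the remaining ones did not. The controls all read higher in the lines, so for the lower ProbeSets the size alone was compared and no control ran in their direction.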

Other observations

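*Nrap*, at a mean signal of 4.0, was the last gene inside the limit, and *Ccdc107*, at 3.999, the first outside it. Their differences were 0.08 and -0.0006.

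Promoters of genes called higher had a median GC content of 59.3% (n = 875), those of genes called lower 63.0% (n = 563) and those of genes not called 61.0% (n = 3141). In the fifth of genes with the lowest promoter GC, 24.6% were higher and 10.1% lower, and in the fifth with the highest, 18.3% were higher and 14.5% lower. These shares were not tested.

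The S-D rats, whose arrays had a chip lot and a scan day of their own, were nearer to the lines than to the parental strains in 58 of the 119 ProbeSets in which all rats of the lines were above all parental rats, and in 28 of the 123 in which they were below. Over all 7168 ProbeSets the share was 43.5%.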
